A study of Homo sapiens with 8 samples.

Results

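The 10 transcription factor genes described here were followed across all libraries: the RUNX family (RUNX1, RUNX2, RUNX3), the grainyhead-like family (GRHL1, GRHL2, GRHL3), the zinc finger repressors OVOL1 and OVOL2, the ETS factor ELF3 and the nuclear factor I gene NFIB. They were taken by symbol as 10 of the 39533 rows of the count table, and all 10 were among the 14255 genes with enough counts to be tested. The set was chosen by symbol with the group differences of these libraries in view. The levels in TSC, PC and CTC and their differences are therefore given as a description, without a p-value for each gene. Test calls among the 10 genes are only counted, beside the share of all tested genes.

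The libraries came from HCT116, a human colorectal cancer cell line, in a model in which circulating tumour cells return to a tumour. There were 3 libraries of tumour self-seeded cells (TSC) and 3 of primary tumour cells (PC), both from the primary tumour, and 2 of circulating tumour cells (CTC), from blood. The labels name no treatment or genetic change in any group, and the sources used here give neither the host animal nor the way TSC were told from PC. The series title names liver cancer, whereas every label names the colorectal line. Nothing in the labels says that the libraries of a group are separate animals or cultures, so the spread between them may be technical.

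RUNX proteins bind DNA as a complex with the common partner CBFβ, encoded by CBFB, and can activate or repress genes according to their cofactors. RUNX1 and RUNX3 are best known from blood and immune cells and RUNX2 from bone, but all RUNX genes are also active in epithelia. Grainyhead-like factors switch on genes of cell junctions and of the epithelial barrier, OVOL factors repress drivers of the mesenchymal state such as ZEB1, and ELF3 is an ETS factor of epithelia, the intestine included.

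Total counts ranged from 957607 in CTC replicate 1 to 19264595 in PC replicate 3. Levels are normalised counts (CPM), scaled to each library's TMM-normalised size. With 3 counts as the floor, a gene at 0 could have had 2.99 CPM in CTC replicate 1 and at most 0.668 CPM in the other libraries. All libraries carried epithelial transcripts, with a sum over 10 markers of 5134 to 9211 CPM. Keratins gave most of this sum, with 2563 to 4896 CPM for KRT8 alone. KRT20 and CLDN7 were at 0, and VIL1, CEACAM5 and CEACAM6 had at most 0.997 CPM, so 5 of the 10 markers had enough counts to be tested. The CTC libraries also held blood transcripts: 26 leukocyte markers summed to 545 CPM in replicate 1 and 216 CPM in replicate 2, against 24.3 to 30.3 CPM in PC and 38.8 to 55.4 CPM in TSC. CD68, a lysosomal macrophage marker named after its values were seen, had 10.8 to 20.7 CPM in PC, below its 21.3 to 49.2 CPM in TSC. Without CD68 the PC sums of 9.66 to 13.5 CPM overlapped those of TSC (6.21 to 18.9 CPM), and CTC had 525 and 202 CPM. Of these markers 9 were at 0 in both CTC libraries, the T cell gene CD3E among them. LYZ, the lysozyme gene of myeloid cells, had 94.8 and 23.4 CPM in CTC and at most 1.47 CPM elsewhere. Erythroid markers summed to 195 and 252 CPM in CTC, with 164 and 209 CPM for the β-globin gene HBB, and to at most 1.59 CPM elsewhere. Platelet markers summed to at most 6.58 CPM and endothelial markers to at most 3.99 CPM in any library. Fibroblast markers summed to 42.8 to 81.5 CPM in PC, 16.0 to 120.3 CPM in TSC and 28.9 and 13.2 CPM in CTC. Since RUNX1 and RUNX3 are also expressed by leukocytes, these values stand beside every CTC level below, and their part in those levels was not tested. In bulk RNA, fewer cells that express a gene and less RNA per cell cannot be told apart.

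The RUNX genes are large and are read from several starts. RUNX1 lies on chromosome 21 (34787801 to 35049302), RUNX2 on chromosome 6 (45328330 to 45551082) and RUNX3 on chromosome 1 (24899511 to 24965138), in the RefSeq annotation of GRCh38.p14. The sequences before the distal starts of RUNX3 and RUNX2 are shown because they hold the core RUNX recognition word. RUNX1 had an entry only for an internal start, and its sequence is shown because it lacks the word. The windows before internal starts of RUNX3 (chr1:24930277-24930526) and RUNX2 (chr6:45422025-45422274) also held 0 copies. The word therefore cannot be compared between the genes apart from the start used. Each printed sequence is given 5′ to 3′ on the strand of its gene, and capitals mark ACCACA, the reverse complement of the searched word TGTGGT.

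RUNX3, bases 250 to 112 before its distal start (chr1:24965122-24965260, minus strand): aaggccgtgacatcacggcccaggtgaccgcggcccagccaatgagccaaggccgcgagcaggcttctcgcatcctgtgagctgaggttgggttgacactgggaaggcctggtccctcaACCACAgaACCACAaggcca
RUNX2, bases 250 to 174 before its distal start (chr6:45328080-45328156, plus strand): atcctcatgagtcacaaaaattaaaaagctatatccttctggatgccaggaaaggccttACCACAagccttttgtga
RUNX1, bases 250 to 1 before an internal start (chr21:34888700-34888949, minus strand): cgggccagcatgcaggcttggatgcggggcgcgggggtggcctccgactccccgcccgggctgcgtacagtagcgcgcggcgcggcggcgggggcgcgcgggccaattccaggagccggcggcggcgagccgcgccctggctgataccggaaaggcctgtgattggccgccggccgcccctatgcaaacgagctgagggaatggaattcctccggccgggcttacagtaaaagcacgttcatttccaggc

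The 2 copies of the word before RUNX3 stood 8 bases apart, and 341 of 35114 upstream windows of 250 bases, or 0.971%, held at least 2. The distal RUNX2 window held a second copy closer to the start, inside an annotated exon and not printed. At least 1 copy occurred in 11.0% of all windows, in 2 of the 19 windows of the 7 genes with an entry. The GRHL word AACNGGTT (1.49% of windows) was in none of the 19, the OVOL word CCGTTA (2.45%) in none, and the NFI word TTGGCA (10.8%) in 2 windows of NFIB. Both strands were searched and no 2 of these matches overlapped. A match describes letters and not a bound site, and counts per gene do not tell which start was used.

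RUNX1 was highest in PC. Its level was 65.9, 71.8 and 91.5 CPM in PC replicates 1 to 3, 21.6, 33.1 and 36.8 CPM in TSC, and 60.8 and 15.4 CPM in CTC. All TSC libraries lay below all PC libraries, and the level fitted by edgeR was 2.48-fold lower in TSC (log2 difference −1.31 ± 0.34, SE). The CTC libraries also lay below PC, but far from each other: their counting intervals (exact Poisson, 95%, covering counting error only) were 46.5 to 78.2 CPM and 13.1 to 17.9 CPM. The difference from PC was −1.26 ± 0.44, and it was −2.34 without CTC replicate 1 and −0.32 without CTC replicate 2. Against CTC, TSC differed by −0.05 ± 0.43, or by 1.01 and −0.99 when the same libraries were left out, so no order of TSC and CTC can be given for RUNX1.

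RUNX2, the factor that drives bone formation, was low in every library and lowest in CTC. It reached 11.2, 11.2 and 7.79 CPM in PC and 4.68, 11.9 and 11.3 CPM in TSC, and these groups overlapped. CTC replicate 1 held 2 counts, or 2.00 CPM (interval 0.242 to 7.21), and CTC replicate 2 held 12 counts, or 1.14 CPM (0.591 to 2.00). Both CTC values lay below every other library, and the log2 difference was −2.96 ± 0.60 from PC and 2.88 ± 0.60 for TSC against CTC. Osteoblast and chondrocyte markers summed to at most 0.446 CPM in any library.

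RUNX3, a gene often silenced in carcinomas, did not separate the groups. Its level was 35.5, 51.7 and 57.5 CPM in PC, 19.4, 52.3 and 43.2 CPM in TSC, and 39.9 and 32.8 CPM in CTC. The groups overlapped in all comparisons, with TSC replicate 1 the lowest library, and the log2 difference was −0.31 ± 0.29 for TSC and −0.44 ± 0.35 for CTC against PC. The antisense row RUNX3-AS1, which lies inside RUNX3, held at most 56 counts (0 to 2.99 CPM). Whether counting used strand is not given, so reads of the overlapping pair cannot be told apart.

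The make-up of the RUNX family therefore differed between libraries. Per kilobase of annotated exon, which allows levels of different genes to be compared, RUNX3 gave most of the family's signal, 58.4% to 86.6%. RUNX1 gave 26.5% to 31.5% in PC and 14.0% to 22.2% in TSC, with 30.1% and 11.8% in CTC. RUNX2 gave 4.86% to 10.2% in PC, 9.15% to 10.4% in TSC and 1.88% and 1.67% in CTC. For each RUNX3 count there were 1.39 to 1.86 RUNX1 counts in PC and 0.633 to 1.11 in TSC, ranges that did not overlap, and 1.53 and 0.468 in CTC. The partner CBFB, had 95.7 to 110.0 CPM in PC, 83.1 to 145 CPM in TSC and 73.6 and 124 CPM in CTC. CBFB did not pass the test in any comparison (log2 difference 0.04 ± 0.23 for TSC against PC, adjusted p = 0.972, and −0.12 ± 0.27 for CTC against PC, adjusted p = 0.824, edgeR's quasi-likelihood test).

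**Figure D1:**
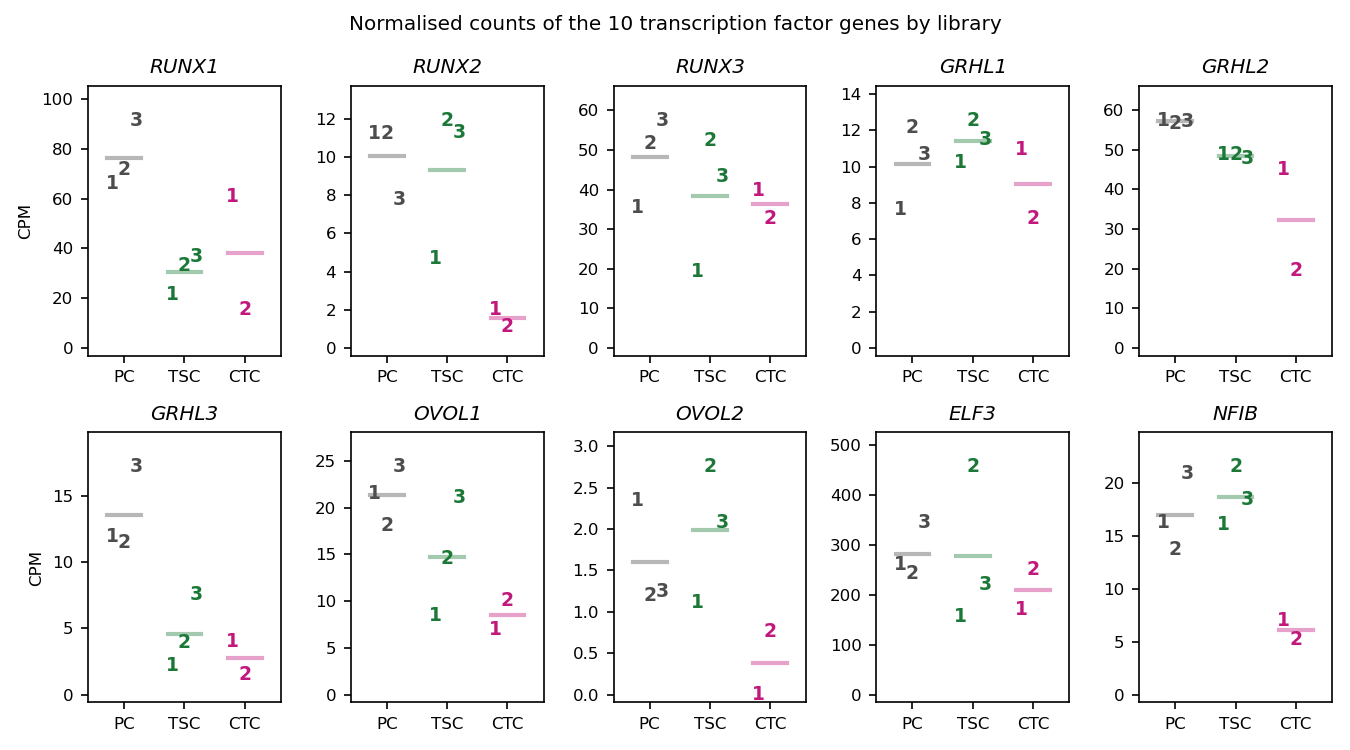
Level of each of the 10 genes in CPM (vertical axes, linear and separate for each gene) in PC, TSC and CTC libraries. Digits are replicate numbers and bars are group means. RUNX1 and GRHL3 lie highest in the 3 PC libraries, and RUNX2 and NFIB lowest in the 2 CTC libraries.

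GRHL1 (chromosome 2, 9951693 to 10002277) hardly separated the groups. It had 7.62, 12.1 and 10.6 CPM in PC, 10.3, 12.6 and 11.5 CPM in TSC and 11.0 and 7.15 CPM in CTC. The groups overlapped throughout, with log2 differences of 0.18 ± 0.29 for TSC and −0.28 ± 0.37 for CTC against PC.

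GRHL2 (chromosome 8, 101492439 to 101681200), the grainyhead factor best known for keeping E-cadherin and claudins expressed, had the smallest spread of the 10 genes within PC and within TSC. Its level was 57.4, 56.7 and 57.2 CPM in PC and 48.8, 48.8 and 47.8 CPM in TSC, while CTC had 44.9 and 19.6 CPM. TSC lay below PC without overlap although the log2 difference was only −0.24 ± 0.23. CTC differed from PC by −0.995 ± 0.29, by −1.56 without CTC replicate 1 and by −0.34 without CTC replicate 2. The counting interval of CTC replicate 1, 32.7 to 60.1 CPM, reached both tumour groups, and that of CTC replicate 2, 17.1 to 22.5 CPM, reached neither.

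GRHL3 (chromosome 1, 24319357 to 24364482), the grainyhead factor of barrier formation and wound closure, had the widest spread of its family on the log2 scale (root mean square over the 8 libraries 1.12, against 0.276 for GRHL1 and 0.473 for GRHL2). It had 11.98, 11.5 and 17.2 CPM in PC, 2.23, 3.95 and 7.60 CPM in TSC and 3.99 and 1.53 CPM in CTC. TSC and CTC each lay below all PC libraries and overlapped each other. The log2 difference was −1.52 ± 0.42 for TSC and −2.75 ± 0.63 for CTC against PC. CTC rested on 4 and 16 counts, and its difference was −3.17 without replicate 1 and −1.76 without replicate 2. Thinning all libraries to the depth of the shallowest, an alternative added after the data were seen, gave −0.83 for TSC and −1.84 for CTC. The antisense row GRHL3-AS1, which overlaps the start of GRHL3, held at most 5 counts.

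Within the family, GRHL2 gave 62.3% to 81.3% of the signal per kilobase of exon in all libraries. GRHL3 gave 21.2% to 28.9% in PC, 5.71% to 17.1% in TSC and 10.3% and 8.55% in CTC, and GRHL1 gave 7.12% to 11.1%, 12.8% to 14.9%, and 14.1% and 19.9%. The PC ranges of both shares lay apart from those of TSC and CTC. For every 100 GRHL2 counts there were 20.3 to 30.2 GRHL3 counts in PC, 4.57 to 15.9 in TSC and 8.89 and 7.77 in CTC.

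**Figure D2:**
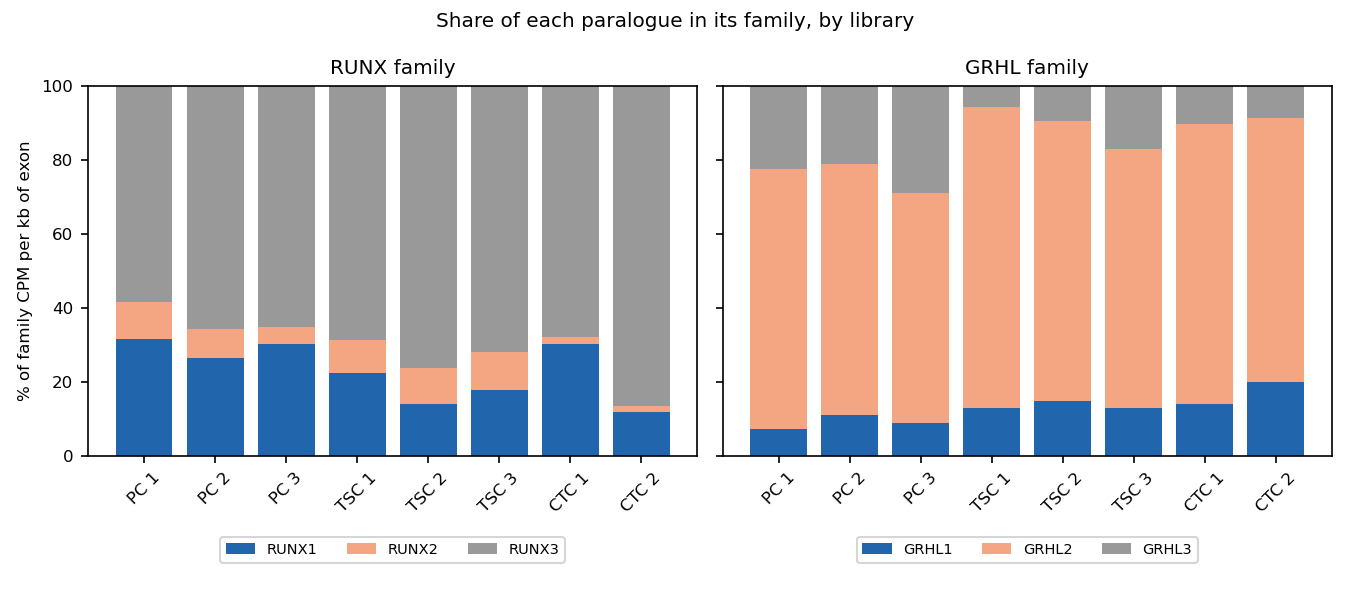
Share of each paralogue in the summed level of its family, in % of CPM per kilobase of exon (vertical axis), for each library. RUNX3 and GRHL2 fill most of every bar, and GRHL3 takes 21.2% to 28.9% in PC and at most 17.1% in TSC and CTC.

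OVOL1 (chromosome 11, 65787063 to 65797214) had 21.5, 18.1 and 24.4 CPM in PC, 8.47, 14.5 and 21.1 CPM in TSC and 6.98 and 10.1 CPM in CTC. The CTC libraries lay below PC, with a log2 difference of −1.22 ± 0.39, while TSC overlapped both groups. OVOL2 (chromosome 20, 18024152 to 18059188) stayed near the detection limit: 2.35, 1.20 and 1.25 CPM in PC, 1.11, 2.75 and 2.08 CPM in TSC, and 0 and 0.763 CPM in CTC. The 0 of CTC replicate 1 allows up to 2.99 CPM, which covers every other library, so a difference in OVOL2 was not detectable at this depth.

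ELF3 (chromosome 1, 202010587 to 202017183) had the highest counts of the 10 genes and the highest level per kilobase of exon. It had 259.5, 243 and 344 CPM in PC, 157, 456 and 221 CPM in TSC and 169.6 and 251 CPM in CTC. The TSC libraries spanned the whole range, so the groups overlapped, and the log2 difference was −0.02 ± 0.30 for TSC and −0.41 ± 0.35 for CTC against PC. NFIB (chromosome 9, 14081843 to 14532077), a nuclear factor I gene active in many developing epithelia, had 16.3, 13.7 and 20.9 CPM in PC and 16.0, 21.5 and 18.5 CPM in TSC. CTC held 7 and 55 NFIB counts, or 6.98 and 5.25 CPM, below the listed values of all other libraries. The counting intervals were 2.81 to 14.4 CPM and 3.95 to 6.83 CPM, and that of CTC replicate 1 reached PC replicate 2. Fibroblasts also express RUNX2 and NFIB, and the part of the fibroblast marker sums given above in either gene was not tested. The NFIB log2 difference was −1.58 ± 0.35 for CTC against PC and 1.73 ± 0.35 for TSC against CTC.

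In PC, the order of mean levels per kilobase of exon was ELF3 (39.3 CPM per kilobase), RUNX3 (10.7), GRHL2 (9.42), OVOL1 (5.55), RUNX1 (4.91), GRHL3 (3.44), NFIB (1.33), GRHL1 (1.27), RUNX2 (1.23) and OVOL2 (0.734). Library ranges of RUNX3 and GRHL2 overlapped, as did those of OVOL1 and RUNX1, of RUNX1 and GRHL3, and of NFIB, GRHL1, RUNX2 and OVOL2 in turn. ELF3 stood apart from RUNX3, GRHL2 from OVOL1, and GRHL3 from NFIB. The lengths count all annotated exons, used or not, which can understate a gene with a long unused exon.

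By their listed values, TSC lay below PC without overlap for 3 of the 10 genes (RUNX1, GRHL2, GRHL3), where 9.9% of all tested genes did so, and above PC for 0, where 8.96% of all genes did. CTC lay below PC for 7 (RUNX1, RUNX2, GRHL2, GRHL3, OVOL1, OVOL2, NFIB), against 24.7% of all genes. TSC lay above CTC for 4 (RUNX2, GRHL2, OVOL2, NFIB), against 15.4%. OVOL2 is counted on the listed 0 of CTC replicate 1. The counting interval of CTC replicate 1 also reached listed PC values for RUNX1, GRHL2 and NFIB, and listed TSC values for RUNX2 and GRHL2. With every 0 set to its library's floor the counts were 3, 6 and 3, without OVOL2, beside 9.63%, 21.0% and 12.8% of all tested genes. The median log2 difference over the 10 genes was −0.16, −1.24 and 0.73 in these comparisons, beside 0.006, −0.044 and 0.065 over all tested genes. These comparisons share libraries, so they are not independent of each other.

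By edgeR's quasi-likelihood test at an adjusted p under 0.05, 0 of the 10 genes were called for TSC against PC (background 0.505% of tested genes, 0.224% higher and 0.281% lower), 2 had an unadjusted p under 0.05 (all tested genes 10.3%) and DESeq2 called 1, RUNX1 (all tested genes 1.34%). For CTC against PC the test called RUNX2, GRHL3 and NFIB, all lower (background 3.92%, and 2.52% lower), and for TSC against CTC it called RUNX2 and NFIB, both higher in TSC (background 0.898%, and 0.372% higher). DESeq2 called 4 and 2 of the 10 in these comparisons, and 7.89% and 2.74% of all tested genes. Since the genes were chosen with these contrasts known, nothing is read from the counts. Each of the CTC against PC calls was lost without CTC replicate 2, where the log2 difference was −2.32 for RUNX2, −1.76 for GRHL3 and −1.28 for NFIB. Other libraries whose removal ended a call were PC replicate 2 for RUNX2 (−2.86), PC replicates 1, 2 and 3 for GRHL3 (−2.84, −2.82 and −2.50), and PC replicates 1 and 3 and TSC replicate 3 for NFIB (−1.63, −1.40 and −1.57). For TSC against CTC both calls were lost without TSC replicate 2 (2.65 for RUNX2 and 1.59 for NFIB), TSC replicate 3 (2.70 and 1.71), PC replicate 1 (2.87 and 1.72), PC replicate 2 (2.86 and 1.72) or CTC replicate 2 (2.24 and 1.42).

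**Figure D3:**
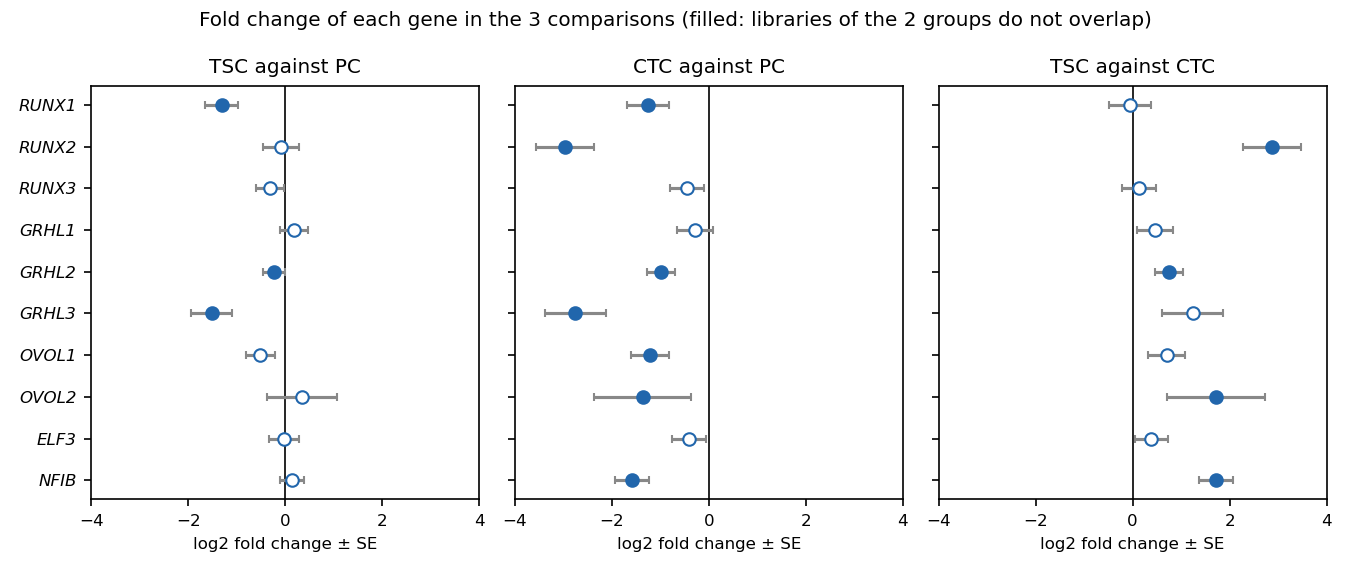
Log2 difference ± SE (horizontal axes) of each gene in the 3 comparisons, negative where the group named first is lower. Filled points mark genes whose libraries do not overlap between the groups, 3 for TSC against PC, 7 for CTC against PC and 4 for TSC against CTC. OVOL2 is filled in the last 2 on a 0 that allows up to 2.99 CPM.

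Companion genes were taken from lists of partners, targets and relatives with roles known from the field. The lists were also chosen with earlier results of these data known. Their calls and p-values therefore describe these libraries and are no independent support. For TSC against PC, 0 of 77 tested companions passed edgeR's test, 12 had an unadjusted p under 0.05 (10.3% of all tested genes had one), and DESeq2 called 2, both lower in TSC (1.34% of all). These were the RUNX1-binding kinase gene HIPK2 (log2 difference −0.97 ± 0.25, DESeq2 adjusted p = 0.0143) and ID2, an inhibitor of basic helix-loop-helix factors (−1.21 ± 0.32, adjusted p = 0.0137), named after their values were seen. For CTC against PC, edgeR called 6 companions higher (background 1.4%) and 5 lower (2.52%). The same background shares stand beside the edgeR counts of each list in this comparison below. DESeq2 called 19 of the 77, 7 higher and 12 lower, beside 7.89% of all tested genes.

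Among 15 tested RUNX partners, 1 fell in CTC against PC and 0 rose by edgeR, and DESeq2 called 1 higher and 3 lower. The median of the partners was −0.42, beside −0.044 over all tested genes. The partner called by both was CBFA2T3, a corepressor of the ETO family, with 42.2, 39.2 and 63.0 CPM in PC and 16.0 and 19.6 CPM in CTC (log2 difference −1.39 ± 0.33, edgeR adjusted p = 0.0332). Its adjusted p was 0.0621 when TSC replicate 3 was left out. For PC replicates 1, 2 and 3 left out in turn it was 0.0538, 0.0534 and 0.121, and for CTC replicates 1 and 2 it was 0.0709 and 0.257.

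Of 10 tested RUNX targets, 4 rose in CTC against PC and 0 fell by edgeR, while DESeq2 called 4 higher and 2 lower. CSF1R, the macrophage growth factor receptor, had 55.9 and 16.3 CPM in CTC and 0.586 to 1.10 CPM in PC (log2 difference 5.21 ± 0.59, edgeR adjusted p = 0.000269). SPI1, the myeloid factor PU.1, had 33.9 and 17.5 CPM in CTC and 0 counts in all PC libraries, and the integrin gene ITGA4 had 6.98 and 3.15 CPM against 0 counts. CEBPA, a granulocyte and macrophage factor, had 34.9 and 19.8 CPM in CTC against 4.32 to 7.37 CPM in PC (2.12 ± 0.46, edgeR adjusted p = 0.0233). In TSC, SPI1 had at most 0.181 CPM and ITGA4 at most 0.633 CPM. These genes therefore entered the test only through their CTC counts, and a call lower in CTC was hardly possible for them. CSF1R and SPI1 are also among the leukocyte markers summed above, and PTPRC, the pan-leukocyte CD45 gene, had 31.9 and 7.63 CPM in CTC and at most 0.503 CPM elsewhere. Their part in the RUNX target counts was not tested. The calls of CSF1R and SPI1 held in all 14 alternatives, whereas 6 alternatives ended that of CEBPA and 6 that of ITGA4. Leaving out PC replicate 1, 2 or 3 gave ITGA4 an adjusted p of 0.0814, 0.0851 or 0.104 and CEBPA one of 0.0517, 0.0805 or 0.0769. Leaving out CTC replicate 2 gave 0.19 for ITGA4 and 0.123 for CEBPA, and leaving out CTC replicate 1 gave 0.0718 for CEBPA. DESeq2 did not call ITGA4 (adjusted p = 0.12). It called SPP1, the osteopontin gene, higher (3.71 ± 1.11, adjusted p = 0.0183). It called the cell cycle inhibitor gene CDKN1A (−0.87 ± 0.27, adjusted p = 0.027) and the vascular growth factor gene VEGFA (−0.79 ± 0.25, adjusted p = 0.0289) lower. The bone targets BGLAP, IBSP and SP7, also among the osteoblast and chondrocyte markers, had at most 0.446 CPM in any library. Other bone or cartilage targets on the list did not share 1 direction. SPP1 had 10.97 and 4.48 CPM in CTC and at most 1.42 CPM elsewhere. In CTC replicate 1, where the floor was 2.99 CPM, MMP13 had 4.99 CPM, ALPL 2.99 CPM and COL10A1 0.997 CPM. All of these last genes were at 0 in CTC replicate 2, and MMP13 and COL10A1 had too few counts to be tested. ALPL had 1.01 to 1.82 CPM in PC (log2 difference −0.91 ± 2.03 for CTC against PC).

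Of 17 tested GRHL targets, 3 fell in CTC against PC and 0 rose by edgeR. Their differences were negative for 15, with a median of −0.45. Of all tested genes 52.6% were negative, with a median of −0.044. SPINT1, an inhibitor of the membrane protease matriptase, had 151, 170.1 and 217 CPM in PC and 75.8 and 101 CPM in CTC (log2 difference −0.99 ± 0.26, edgeR adjusted p = 0.0458). EVPL, the envoplakin of the cell envelope, had 172, 150.2 and 207 CPM in PC and 55.9 and 42.3 CPM in CTC (−1.89 ± 0.50, adjusted p = 0.0472). E-cadherin (CDH1) had 135, 138 and 213 CPM in PC and 111 and 82.3 CPM in CTC and did not pass edgeR's test (adjusted p = 0.079), whereas DESeq2 called it lower (−0.76 ± 0.25, adjusted p = 0.0397). EPCAM had 391 to 469 CPM in PC and 568 and 546 CPM in CTC (adjusted p = 0.239). The 3 GRHL relatives TFCP2, TFCP2L1 and UBP1 gave 0 calls by edgeR or DESeq2, with 1 unadjusted p under 0.05.

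The calls of SPINT1 and EVPL depended on single libraries, and DESeq2 did not call EVPL (adjusted p = 0.0658). Without TSC replicate 3, adjusted p was 0.0777 for SPINT1 and 0.0777 for EVPL. Leaving out PC replicate 1, 2 or 3 in turn, it was 0.0601, 0.0975 and 0.157 for SPINT1 and 0.0872, 0.0795 and 0.13 for EVPL. Without CTC replicate 2 it was 0.205 for SPINT1 and 0.336 for EVPL, and without CTC replicate 1 it was 0.129 for SPINT1 and 0.0868 for EVPL.

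Among 7 tested OVOL relatives and targets, edgeR called ZEB2 and VIM higher in CTC against PC and 0 lower. The log2 differences were positive for 4 and negative for 3, beside 52.6% negative over all tested genes. VIM, the mesenchymal and leukocyte filament vimentin, had 221 and 104 CPM in CTC and 1.75 to 4.36 CPM in PC (log2 difference 5.51 ± 0.41, edgeR adjusted p = 8.15e-06). ZEB2 had 107 and 55.5 CPM in CTC and at most 1.14 CPM in PC (6.75 ± 0.85, adjusted p = 0.000674), and both calls held in all 14 alternatives. ZEB1, the classical OVOL target, had 7.98 and 12.7 CPM in CTC and 4.51 to 9.97 CPM in PC (0.68 ± 0.57, edgeR adjusted p = 0.499). SNAI1 went the other way, with 3.99 and 6.29 CPM in CTC and 9.38 to 12.5 CPM in PC (−0.94 ± 0.40, edgeR adjusted p = 0.172). TWIST1 had 0 CPM in both CTC libraries and 1.17 to 1.71 CPM in PC, which the 2.99 CPM floor of CTC replicate 1 covers (edgeR adjusted p = 0.117). Leukocytes also express VIM and ZEB2, and the leukocyte marker sums of 545 and 216 CPM in the same libraries stand beside these values. Their part was not tested. For TSC against CTC, 4 companions passed edgeR's test, CSF1R, SPI1, ZEB2 and VIM, all lower in TSC (background 0.526%), and the call of ZEB2 was lost with DESeq2 (adjusted p = 0.0693). DESeq2 called 9 of the 77, beside 2.74% of all tested genes, with 6 lower and 3 higher in TSC. Those higher in TSC, named after their values were seen, were the ETS genes EHF (2.19 ± 0.58, adjusted p = 0.0121) and ETS2 (0.78 ± 0.24, adjusted p = 0.049) and the GRHL target SPINT1 (0.87 ± 0.26, adjusted p = 0.0412).

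The ETS and NFI relatives gave 0 calls of 9 in CTC against PC by edgeR, with 5 unadjusted p-values under 0.05 (23.6% of all tested genes had one). DESeq2 called 1, NFIC, lower in CTC (−0.96 ± 0.33, DESeq2 adjusted p = 0.0456), named after its value was seen. NFIC had 268, 225 and 338 CPM in PC, 131, 401 and 314 CPM in TSC and 147 and 136 CPM in CTC. Of 16 other epithelial transcription factors, 1 fell in CTC against PC: SOX9, a factor of intestinal crypt cells, with 312, 367 and 501 CPM in PC and 172 and 83.2 CPM in CTC (log2 difference −1.68 ± 0.40, edgeR adjusted p = 0.0319). TSC had 78.0, 211 and 197 CPM of SOX9. The call was lost without TSC replicate 3 (adjusted p = 0.0576), PC replicates 2 and 3 (0.0639 and 0.105) or CTC replicate 2 (0.309).

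**Figure D4:**
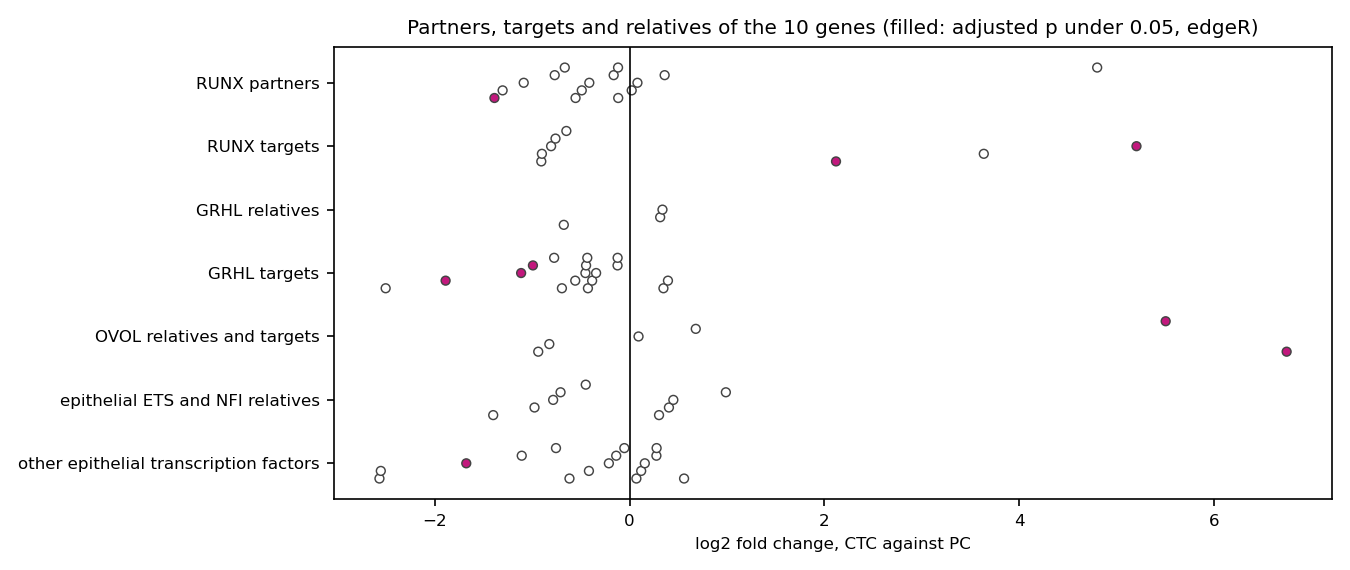
Log2 difference of CTC against PC (horizontal axis) for 74 tested partners, targets and relatives, 1 point a gene. Filled points passed edgeR's test. SPI1, ITGA4 and TWIST1 are left out because a group had 0 counts, and CSF1R, ZEB2 and VIM lie farthest to the right among the filled points.

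For each of the 10 genes, the genes nearest in pattern were found among 9294 others with a mean log2 CPM of at least 3, by the root mean square difference of log2 CPM after centring over the 8 libraries. This measure is smaller for closer patterns and is a description over libraries that share groups and depth. GRHL3 was nearest to PFKFB4, a glycolytic regulator gene, at 0.178, while its own root mean square spread was 1.12. PFKFB4 stayed its nearest gene with each library left out in turn, and the next, KSR2, was at 0.34. RUNX1 was nearest to PLEKHG1 (0.214) and to the Notch ligand gene JAG1 (0.236), which took ranks 1 to 10 and 1 to 13 when libraries were left out.

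The other nearest pairs were SEPTIN3 (0.42) and CACNA2D2 (0.442) for RUNX2, SLC37A1 (0.133) and HDAC5 (0.157) for RUNX3, and TMEM87B (0.095) and KIAA2013 (0.129) for GRHL1. GRHL2 was nearest to CTSH (0.117) and to the growth factor receptor gene FGFR2 (0.134), and OVOL1 to SLC45A1 (0.181) and the corepressor gene TLE2 (0.184). OVOL2 was nearest to ZNF512B (0.375) and P3H3 (0.451), ELF3 to GOLGA3 (0.122) and FBXL16 (0.143), and NFIB to CYBC1 (0.154) and KIRREL1 (0.192). The nearest genes of RUNX2 and OVOL2, which have low counts, were the most distant. Their own root mean square spread was also the widest of the 10 genes (1.156 and 1.162, against 0.276 for GRHL1). The distances were not scaled to that spread. Ranks shifted when 1 library was left out, also for a gene with higher counts: CTSH went as far as rank 108 for GRHL2, CACNA2D2 as far as 210 for RUNX2, and ZNF512B and P3H3 as far as 158 and 1255 for OVOL2. Among the 10 genes themselves the closest were RUNX3 and ELF3 (0.365) and GRHL1 and GRHL2 (0.387).

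**Figure D5:**
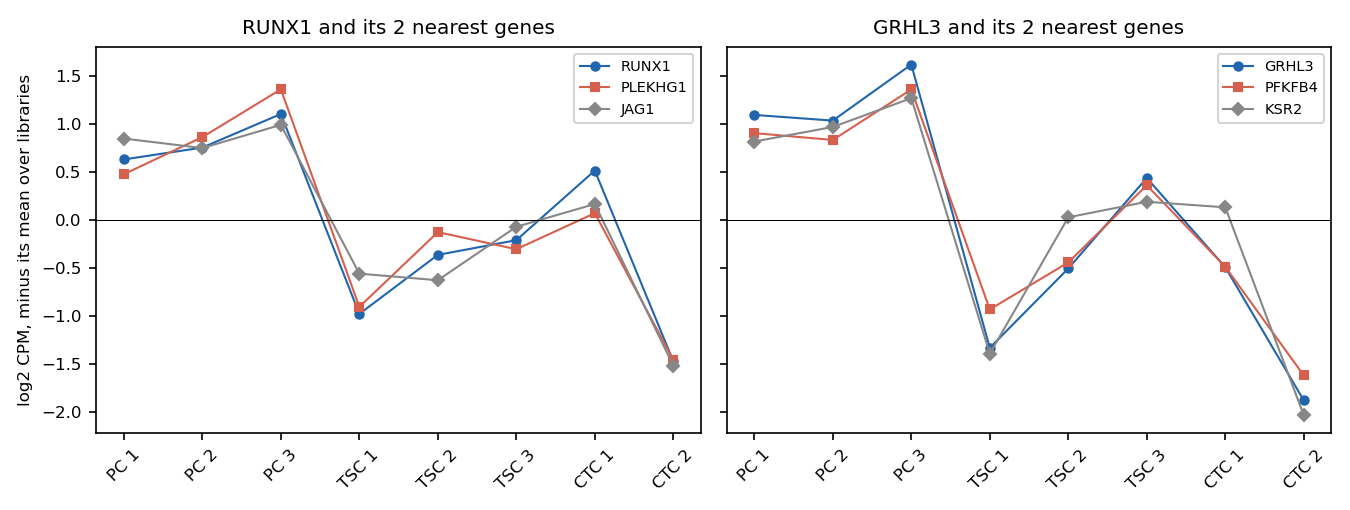
Log2 CPM minus its mean over the 8 libraries (vertical axis) for RUNX1 and GRHL3, each with its 2 nearest genes, by library. PFKFB4 runs within a root mean square distance of 0.178 of GRHL3, and PLEKHG1 within 0.214 of RUNX1.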

How the data were processed

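RNA of 8 libraries (3 TSC, 3 PC, 2 CTC) was extracted with a micro-scale column kit and depleted of ribosomal RNA, per the labels' protocols. The authors deposited raw counts per gene, and the submitters' processing notes name STAR 2.5.3a, featureCounts 1.5.3 and hg38. The sources used here do not give the annotation, strand setting, treatment of multiply mapped reads or any removal of host reads.

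The quasi-likelihood test of edgeR 4.0.16 (R 4.3.3, after filterByExpr and with TMM factors) was fitted to the counts of all 8 libraries together with a group factor, and p-values were Benjamini-Hochberg adjusted over 14255 genes and called under 0.05. The SE is the log2 difference divided by the square root of F. The floor is 3 counts. DESeq2 1.42.0 was an alternative. Exon lengths are GENCODE v29 unions.

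The 10 genes and all lists were chosen with earlier results of these data known, and so were the 4 sequence words and the printed windows. Thinning of all libraries to 957607 counts was added after the data were seen. Named genes are the 10 members, CBFB, called list genes (at most 5 a list and comparison), the 2 nearest genes of each member, and EPCAM, PTPRC, LYZ and HBB as markers. The values of 1 called GRHL target are not reported here. Other genes, such as CDH1, ZEB1 and the uncalled list members, were named after their values were seen. Upstream windows come from RefSeq (GRCh38.p14), where 7 of the 10 genes matched. No 2 libraries agreed within sampling noise. The method was tested on simulated counts.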

Additional observations from a re-analysis of the deposited data

How the results depend on the processing

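Counts of called genes depended on depth, filter and single libraries, and the cause was not tested unless a setting removes data. For TSC against PC, 72 genes and 0 of the 10 factors were called, against 355 and 2 with no filter, 191 and 1 by DESeq2, 137 and 1 with only those groups, and 10 to 155 and 0 to 1 with a library left out. For CTC against PC, 559 and 3 became 1535 and 6 with no filter, 1419 and 5 with only those groups, 261 and 1 with the replicate number as a block, 249 and 0 after thinning and 40 to 1536 and 0 to 6 with a library left out, and DESeq2 called 1125 genes. For TSC against CTC, 128 and 2 became 61 and 0 with the block, 77 and 0 after thinning and 36 to 693 and 0 to 3 with a library left out, 728 and 390 genes were called with no filter and by DESeq2, and 0 of the factors with only those groups. The balance of directions also moved: CTC against PC had 200 genes higher and 359 lower, but 37 and 3 without CTC replicate 2, and TSC against CTC had 53 and 75, but 492 and 201 without TSC replicate 1, 117 and 50 without CTC replicate 1 and 514 and 214 with no filter. TSC against PC had 32 and 40, but 13 and 4 without TSC replicate 3. DESeq2 size factors kept these counts within 1.5 times. Whether the replicate numbers pair the libraries is not known. Correlations of TSC and PC deviations from their group means were 0.033, −0.134 and 0.094 for numbers 1, 2 and 3. These cannot settle it, because the deviations within each small group sum to 0. No called difference changed sign among the 10 factors and named list genes. With a CTC library left out, the lone library is assumed to vary like the other groups. A depth of 957607 counts in CTC replicate 1 limits RUNX2, GRHL3, OVOL1, OVOL2 and NFIB most, with 0 to 7 counts each.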
